A study of Mus musculus with 2 samples.

Results

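The genes described here encode cytokines and cytokine receptor chains, and their RNA was measured in rib chondrocytes from mice aged 5 days. They are the IL-6 family ligands Il6, Lif and Il11, the receptor chains Osmr and Il6st, the cytokine genes Il15, Il23a, Tslp and Csf1, and Il15ra, the gene of the alpha chain of the IL-15 receptor. They were chosen by name, with the differences between these arrays already known, so their log2 ratios are a description of the choice and not evidence for it. All 10 were found, among 18193 genes with a value of their own, through 20 probe sets that are each annotated to 1 of them alone. There were 2 samples, each 1 array of the Affymetrix Mouse Genome 430 2 type. One was from wild-type mice and the other from mice labelled V156D mutant, which carry this change in Matn1, the gene of the cartilage matrix protein matrilin-1. Both groups were alike in age, tissue, collagenase release of the cells and TRIzol extraction. Cells of 5 littermates were pooled before RNA extraction, and the labels do not say whether this number holds for each genotype. They do not state the strain, the sex or whether the mutant animals carried 1 or both mutant alleles.

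IL-6 family cytokines act through receptors that share the signalling chain gp130, the product of Il6st, which is paired with a ligand-specific chain such as the oncostatin M receptor (Osmr) or the LIF receptor (Lifr). Gp130 activates JAK kinases and the transcription factor STAT3, which induces the feedback inhibitor SOCS3. IL-15 is held on the cell surface by IL-15 receptor alpha and presented to neighbouring lymphocytes. IL-23 consists of the p19 chain, the product of Il23a, and the p40 chain, the product of Il12b. TSLP is an IL-7-like cytokine of epithelial and stromal cells, and CSF1 sustains macrophages and osteoclasts. In cartilage, chondrocytes are a known source of several of these cytokines, and IL-6 family members and CSF1 act in the turnover of cartilage and bone.

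The promoters of 4 of the genes are shown because these genes differ in their values below: Il6 was the member with the higher signal in the mutant array, and Lif, Il15ra and Csf1 were lower. Each is the RefSeq sequence of GRCm38.p6 from 250 bases before to 50 after an annotated transcription start, written 5′ to 3′ in the direction of the gene. Capitals mark matches to the motifs described after them.

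Il6, chr5:30012864-30013163, plus strand: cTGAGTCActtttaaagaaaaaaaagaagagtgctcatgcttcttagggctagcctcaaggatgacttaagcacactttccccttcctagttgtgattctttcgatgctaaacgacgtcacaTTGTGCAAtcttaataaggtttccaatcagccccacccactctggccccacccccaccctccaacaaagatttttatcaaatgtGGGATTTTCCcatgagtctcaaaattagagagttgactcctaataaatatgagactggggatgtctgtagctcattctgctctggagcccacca
Lif, chr11:4257318-4257617, plus strand: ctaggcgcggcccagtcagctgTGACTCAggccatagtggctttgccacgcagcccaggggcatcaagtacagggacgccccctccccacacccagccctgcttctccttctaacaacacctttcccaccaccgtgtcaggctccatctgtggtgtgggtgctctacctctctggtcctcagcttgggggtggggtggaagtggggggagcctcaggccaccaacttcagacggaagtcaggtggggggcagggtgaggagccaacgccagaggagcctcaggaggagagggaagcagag
Il15ra, chr2:11705462-11705761, plus strand: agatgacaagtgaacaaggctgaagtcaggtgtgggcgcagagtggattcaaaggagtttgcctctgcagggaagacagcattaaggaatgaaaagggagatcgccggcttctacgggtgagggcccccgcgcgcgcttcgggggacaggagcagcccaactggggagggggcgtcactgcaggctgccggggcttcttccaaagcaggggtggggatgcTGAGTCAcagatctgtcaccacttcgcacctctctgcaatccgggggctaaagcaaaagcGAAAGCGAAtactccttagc
Csf1, chr3:107760420-107760719, minus strand: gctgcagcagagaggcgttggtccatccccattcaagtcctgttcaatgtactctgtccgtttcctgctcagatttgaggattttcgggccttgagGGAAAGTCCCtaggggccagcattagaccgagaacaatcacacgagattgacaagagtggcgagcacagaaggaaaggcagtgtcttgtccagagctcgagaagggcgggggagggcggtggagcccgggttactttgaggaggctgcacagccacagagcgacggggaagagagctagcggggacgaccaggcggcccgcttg

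Of the 10 genes, 7 had a RefSeq promoter that could be used, with 9 start sites in all, and both strands of each were searched. A gene was counted when any of its start sites held a match, whereas the percentages count single promoters. The AP-1 motif TGANTCA lay in a promoter of 5 of the 7 genes, namely Il6, Lif, Il11, Osmr and Il15ra, and in 7.81% of the 32851 promoters of the table. In Il11 it began 98 bases upstream of the start, in Lif 228, in Il6 249, and in the Il15ra promoter shown 30. In Osmr it began just past the start. The NF-kB motif GGGNNTTNCC lay in 2 of the 7, beginning 44 bases upstream in Il6 and 154 in Csf1, on the opposite strand there, and in 4.79% of all promoters. The C/EBP motif TTNNGCAA was found in Il6 alone, 128 bases upstream, and in 10.8% of all promoters. No match was found for the STAT motif TTCNNNGAA (8.3% of all promoters), the CRE motif TGACGTCA (1.79%) or the TATA motif TATAAA (13.6%). The IRF motif GAAANNGAA was added after the sequences had been seen, and lay in both Il15ra promoters and in 8.56% of all promoters. None of these matches overlapped another. A match is a run of letters and not evidence of binding, and the genes were chosen with their values known, so nothing is read from these shares.

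Signals are intensities of probe sets, not on a log scale, and the log2 ratio is that of the mutant over the wild-type array. Each gene is given by its brightest probe set over both arrays, and the other probe sets are given beside it. The signal floor, the median over all probe sets, was 54.6, a level that 11329 genes reached. No test was possible with a single array of each genotype, and a difference between the arrays is not shown to be one between genotypes. The only spread available is that over other genes and over probe sets of 1 gene. Neither holds the variation between animals or RNA pools, so neither gives the error of a difference between genotypes. Over the 11329 genes the log2 ratios had a median of -0.02, an SD of 0.27 and a central 95% from -0.55 to 0.49. In 4878 genes a second probe set also reached the floor, and its ratio differed from that of the brightest with an SD of 0.26. Intensities of different probe sets are not compared with each other.

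Most of the cytokine and receptor genes had lower signals in the mutant array, and Il6 did not. Of the 10 genes 9 were at or above the floor, of which 8 had a ratio below 0 and 1 above. Of all genes at or above the floor 55% had a ratio below 0. Il23a, Il15ra and Tslp were at least 2-fold lower, 3 genes in all, and none was 2-fold higher. Tslp is counted only because its wild-type value lifts its mean over the floor, and the count was 2 with the floor at the 60th percentile and 1 with 32 added to each signal. Over all genes 0.256% were at least 2-fold lower and 0.653% at least 2-fold higher. With Lif and Csf1 added, 5 genes were at least 1.5-fold lower and 0 at least 1.5-fold higher, against 2.02% and 1.7% of all genes. The median over the 9 genes was -0.62, or -0.39 with the mean over each gene's probe sets. By single probe sets, 16 of 20 had a ratio below 0, 8 were at least 1.5-fold lower and 4 at least 2-fold lower. The probe sets belong to the same 10 genes and restate the counts above, and no share over all probe sets was taken. These counts follow from the way the genes were chosen.

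**Figure D1:**
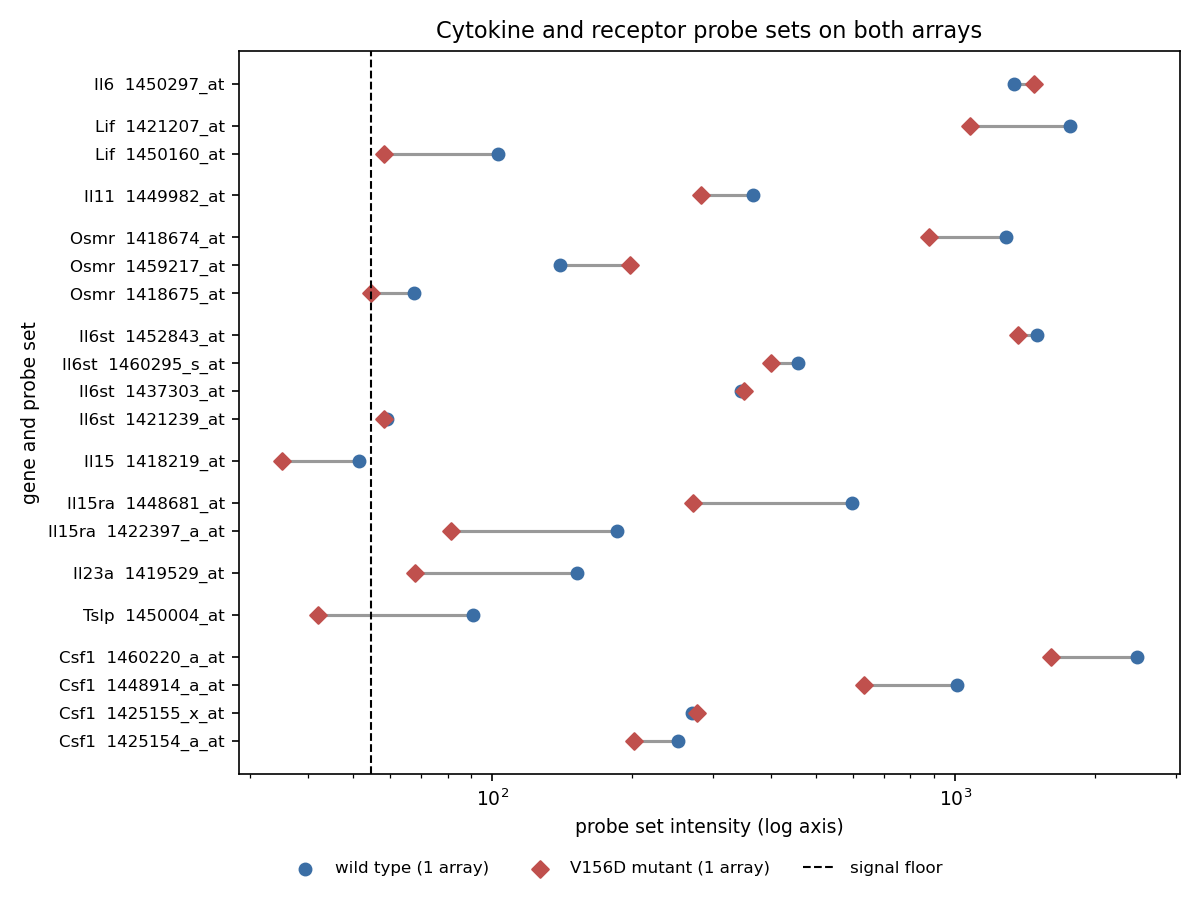
Intensity of each of the 20 probe sets (horizontal log axis) on the wild-type array (circles) and the mutant array (diamonds), grouped by gene, with the signal floor at 54.6 as a dashed line. The diamonds lie to the left of the circles for 16 probe sets, and Il15 lies below the floor on both arrays.

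The 3 ligand genes of the IL-6 family differed in direction. Lif, which encodes leukaemia inhibitory factor, had a signal of 1771 on the wild-type array against 1076 on the mutant array, which is 1.65-fold lower (log2 ratio -0.72). Its second probe set, at 103 and 58.4, gave -0.81, so both probe sets were lower by similar amounts. Il6 had 1342 and 1480, a ratio of 0.14, and was the 1 member with the higher signal in the mutant array. Il11, which encodes an IL-6 family cytokine that also acts on osteoclast formation, had 366 and 283, a ratio of -0.37. Lif therefore lay outside the central 95% of all genes, whereas Il6 and Il11 lay within it. Il6 and Il11 have 1 probe set each, so no second probe set bears on them.

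The receptor chains of the family gave smaller or unsettled differences. Il6st, the gene of gp130, gave 1502 against 1364 with its brightest probe set, a ratio of -0.14. Its 4 probe sets ranged from -0.20 to 0.02, with a mean of -0.09 ± 0.10 (SD over probe sets, not samples). Osmr gave 1285 against 879 with its brightest probe set, which is 1.46-fold lower (log2 ratio -0.55). A second probe set of Osmr, at 140 and 198, went the other way with 0.50, and the third, at 67.7 and 54.7, gave -0.31. The mean over the 3 was -0.12 ± 0.55 (SD over probe sets), so the direction of Osmr was not settled by these arrays.

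Il15ra was lower in the mutant array with both of its probe sets. The brightest gave 598 on the wild-type array against 272 on the mutant array, which is 2.20-fold lower (log2 ratio -1.14). The other, which may match several transcripts, had 186 and 81.3, a ratio of -1.19. Their mean was -1.17 ± 0.04 (SD over probe sets), and all 4 values were above the floor. Only 11 of the 11329 genes had a lower ratio than Il15ra, which was chosen with this difference known. Among 2266 genes of like signal, with mean intensities of 326 to 729, the central 95% of ratios ran from -0.53 to 0.41. Il15, the gene of its ligand, gave 51.4 against 35.1, a ratio of -0.55. Both values lie below the floor, and they were 1.24-fold apart when 32 was added to each signal before log2. An Il15 difference is therefore not readable at this signal.

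Il23a and Tslp were also lower, but at weak signals and with 1 probe set each. Il23a, which encodes the p19 chain of IL-23, gave 152 on the wild-type array against 68.0 on the mutant array, which is 2.24-fold lower (log2 ratio -1.16). Tslp gave 90.7 against 42.1 (log2 ratio -1.11), but its mutant value lies below the floor, so the size of its difference is not readable. The wild-type signal of Tslp was 1.66-fold above the floor, which is a median over probe sets and not a limit of detection. With the offset of 32, which damps differences at low signal, Il23a was 1.84-fold lower, whereas Il15ra stayed past the threshold at 2.08-fold. Of all genes, 9 had a lower ratio than Il23a, which was also chosen with its difference known. Among the 2266 genes of signal like that of Il23a (96.5 to 177) the central 95% ran from -0.58 to 0.64, and Il23a lay below this range.

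Csf1 was lower by its bright probe sets, and its probe sets did not all move alike. The brightest gave 2471 against 1612, which is 1.53-fold lower (log2 ratio -0.62), and the next had 1011 and 634, a ratio of -0.67. The next probe set, at 269 and 276, gave 0.04, and the last, at 251 and 202, gave -0.32. The mean over the 4 was -0.39 ± 0.33 (SD over probe sets). All 4 are of kinds that may match several transcripts or transcript forms, and which forms each one reads was not analysed here. After quantile normalization the ratio of the brightest was -0.54, short of 1.5-fold.

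**Figure D2:**
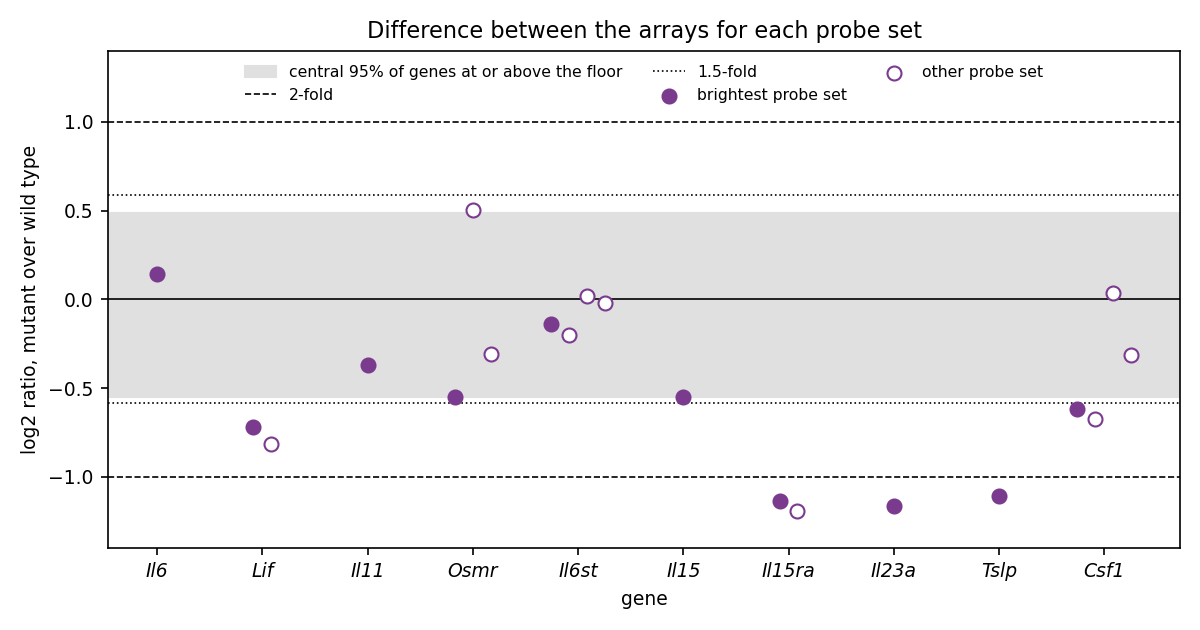
Log2 ratio of mutant over wild type (vertical axis) for every probe set of the 10 genes, with the brightest probe set filled; the grey band is the central 95% of all genes at or above the floor, from -0.55 to 0.49. Both probe sets of Il15ra and the single ones of Il23a and Tslp lie below the 2-fold line, and the 3 probe sets of Osmr spread from -0.55 to 0.50.

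**Figure D3:**
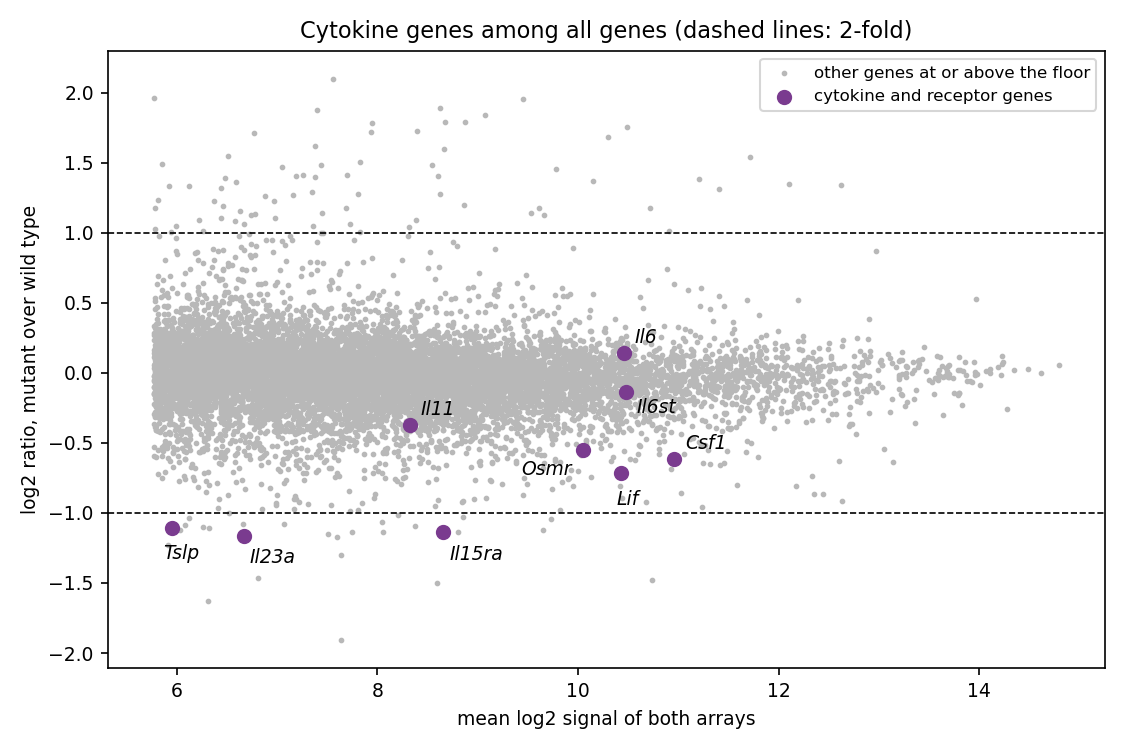
Log2 ratio (vertical axis) against mean log2 signal of both arrays (horizontal axis) for the 11329 genes at or above the floor in grey and the 9 cytokine and receptor genes among them in purple. Tslp and Il23a lie at weak signal, whereas Lif, Osmr and Csf1 lie at strong signal, where the SD of the ratios of other genes is smaller (0.23 above 729, against 0.28 between 54.6 and 96.5).

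Receptor and partner chains of these cytokines were present in part. Of 12 such genes listed by their known role, 9 had a probe set of their own and 5 reached the floor. Lifr, the LIF receptor, gave 419 against 207, which is 2.02-fold lower (log2 ratio -1.01), but the mean over its 3 probe sets was -0.41. Il6ra, the IL-6 receptor, had 201 and 154, a ratio of -0.39. Crlf2, the TSLP receptor chain, had 989 and 967, a ratio of -0.03 whose sign changed with the scaling of the arrays (-0.05 to 0.03), whereas its partner Il7r lay far below the floor, at 14.4 on the mutant array. Il2rb, a chain of the IL-15 receptor on lymphocytes, had 43.5 and 54.0, and Il12b, the p40 chain that IL-23 needs, had 20.3 and 20.9, all below the floor. Il12rb1, an IL-12 and IL-23 receptor chain, had 79.2 and 77.1. Csf1r, the CSF1 receptor of macrophages, had 94.4 and 106, and Il34, the gene of its other ligand, lay below the floor at 31.2 and 33.2.

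The wider IL-6 family and the genes downstream of gp130 are given by lists, which include the members that belong to them. Their counts below 0, and those of the later lists, stand beside the 55% of all genes at or above the floor. Of 7 receptor genes of the family measured, 6 reached the floor and all 6 were lower by their brightest probe set. Osmr is among them, although its direction was not settled. The ratios ran from Lifr at -1.01 to Cntfr, a receptor chain for ciliary neurotrophic factor, at -0.10. Their median was -0.30, or -0.17 with the mean over probe sets at or above the floor. Of the 5 ligand genes at or above the floor 3 were below 0 and the median was -0.37, with Lif and Il6 at the ends. The 13 JAK, STAT and feedback genes were mixed, 7 lower and 6 higher, none by 1.5-fold. Their median was -0.05, which was 0.01 after quantile normalization, and Stat5a at -0.37 and Cish at 0.27 were the extremes. Socs3, the feedback inhibitor, had 1921 and 1786, a ratio of -0.11, with a mean over its 3 probe sets of 0.07. Stat3 had 2168 and 2095, a ratio of -0.05, which was 0.01 after quantile normalization. Its 4 probe sets did not agree and ranged from -0.25 to 0.26. Of 12 known gp130 target genes at or above the floor 11 were below 0, with a median of -0.23. The median was -0.15 with the mean over probe sets, with 9 of 12 below 0, and -0.08 without probe sets of kinds that may match several transcripts, with 7 of 9 below 0. Lcn2, the iron-binding lipocalin of the acute phase, was lowest at -0.99, from 298 to 150, followed by the acute-phase gene Saa3 at -0.60, from 142 to 93.4. Timp1, an inhibitor of matrix metalloproteinases, was highest at 0.00, at 6925 and 6931.

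Other cytokine families were described from lists made with earlier results of these arrays known. In the gamma chain family, listed here with Tslp and its receptor chain Crlf2, 5 of 16 measured genes were at or above the floor. All 5 were below 0, from Il15ra to Il9 at -0.01, with a median of -0.17, but 4 of 5 after quantile normalization. The members Il15ra and Tslp are among the 5, and the median of the 3 other genes was -0.03. Without probe sets of kinds that may match several transcripts 3 genes were left. Their median of -1.11 was the ratio of Tslp itself, whose size is not readable. In the IL-12 and IL-23 family only Il23a and Il12rb1 (-0.04) were at or above it. Of the 6 colony stimulating factor and receptor genes at or above the floor 3 were below and 3 above 0, with a median of -0.09 that was 0.03 under another setting. Csf2, which encodes the granulocyte-macrophage factor, was lowest at -0.92, from 637 to 337, and Kitl, which encodes stem cell factor, was highest at 1.27, from 92.0 to 222, with a mean of 0.67 over its 4 probe sets. Among 12 IL-1, TNF and IL-17 genes at or above the floor 10 were below 0 and 3 at least 1.5-fold lower, against 2.02% of all genes, with a median of -0.42. With the mean over each gene's probe sets 1 was 1.5-fold lower. Il33, an alarmin of stromal and endothelial cells, was lowest at -0.87, from 124 to 67.5, and Tnfrsf1a, a TNF receptor, highest at 0.09. Il1b, at 34.0 and 32.9, lay below the floor on both arrays.

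Of the genes of NF-kB, its inhibitors and its targets some were lower in the mutant array and others were near no change. All 13 measured reached the floor, 12 had a ratio below 0 and 6 were at least 1.5-fold lower, against 2.02% of all genes, with a median of -0.57. The count was 4 after quantile normalization, and the median was -0.29 with the mean over each gene's probe sets. Cxcl1, a neutrophil chemokine, at -0.03 and the subunit genes Rel at -0.11 and Rela at -0.18 were close to 0, and are named after their values were seen. Nfkbie, an inhibitor of NF-kB, was lowest at -1.03, from 661 to 324, and Nfkbia, the inhibitor IkB-alpha, highest at 0.05, at 12414 and 12863. The Nfkbia ratio was -0.04 as the mean over its 5 probe sets. Of 9 interferon response genes at or above the floor 6 were below 0, against 55% of all genes, with a median of -0.21. Of these 6, Irf7 (66.9 and 53.4) and Gbp2 reached the floor only through their wild-type values. Without probe sets of kinds that may match several transcripts, 2 of 4 were below 0, with a median of -0.04. Gbp2, an interferon-inducible GTPase, was lowest at -1.63, from 140 to 45.2. Its mutant value lies below the floor, so the size of its difference is not readable, and its wild-type signal was 2.55-fold above the floor. At the other end was Tap1, a peptide transporter of antigen presentation, at 0.18, which was -0.04 as the mean over its 4 probe sets. Irf1, an interferon-induced transcription factor, was not among the extremes and had -0.38; it is named after its value was seen.

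**Figure D4:**
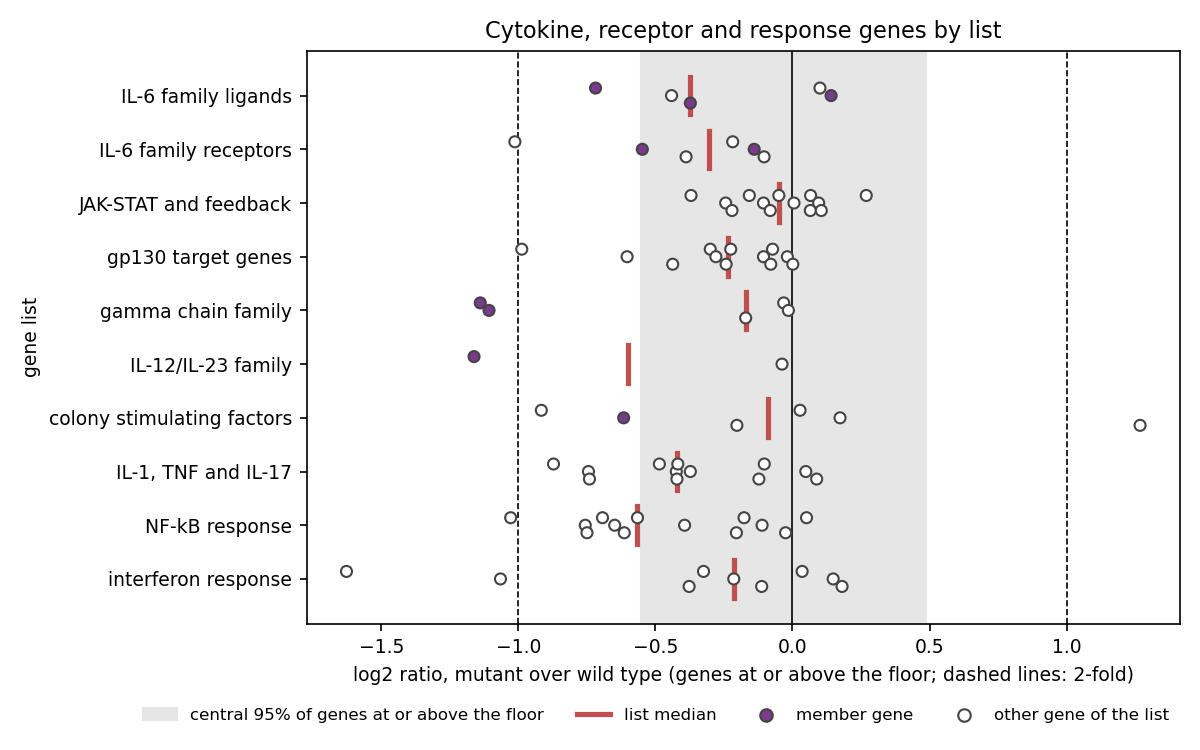
Log2 ratios (horizontal axis) of the genes at or above the floor in 10 lists, with the members filled, the list medians as red bars and the central 95% of all genes in grey. The NF-kB list has the median of -0.57 and the JAK-STAT list lies around 0. In the gamma chain list, which here includes Tslp and its receptor chain Crlf2, Il15ra and Tslp lie at -1.14 and -1.11.

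The arrays differed in other respects that run beside these values. All 10 chondrocyte markers were above the floor, from 2555 to 29057, with a median ratio of 0.03 and none 1.5-fold apart. The defining markers of the labelled cell type were thus present on both arrays. Of 11 fibroblast and perichondrial markers 10 were higher in the mutant array, 7 at least 1.5-fold against 1.7% of all genes, with a median of 0.97. Of 10 endothelial markers 6 were at or above the floor, 5 of them higher and 4 at least 1.5-fold higher. Emcn (38.2 and 96.4), which is in both of these counts, reached the floor only through its mutant value. The same holds for Scx (50.1 and 73.0), 1 of the 10 fibroblast and perichondrial markers that were higher. That Emcn and Scx are counted at all thus rests on their higher mutant values. All 13 heat shock genes were lower, 8 at least 1.5-fold against 2.02% of all genes, with a median of -0.73. Of 17 immediate early genes 14 were lower, against 55% of all genes, with a median of -0.10. Fosl1, an AP-1 subunit, was the lowest of these at -0.64. Sex-linked transcripts differed too, with Xist at 7755 and 5006 and Eif2s3y at 230 and 490. The part of cell mixture, cell release and sex in the cytokine values was not tested, and with 1 array each they cannot be told apart from the genotype. In bulk RNA, fewer cells of a type and less RNA per cell cannot be told apart either.

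Immune cells could also carry these cytokines, and their markers were below the floor in part. Of 12 macrophage and osteoclast markers 6 were at or above the floor, with a median of -0.08 over these, which was 0.01 without probe sets of kinds that may match several transcripts. Ptprc, the leukocyte gene of CD45 (11.1 and 10.8), and the macrophage genes Adgre1 (37.8 and 47.1) and C1qa (28.9 and 29.7) lay below it. Csf1r, given above, Cd68 (119 and 106) and Lyz2 (71.9 and 72.2) lay above it. Cd14, also made by stromal cells, had 1500 and 1187, and the osteoclast protease gene Ctsk had 498 and 1095, which is 2.20-fold higher in the mutant array. The list summed to an intensity of 2633 on the wild-type array and 2853 on the mutant array. Most of this sum came from Cd14 and Ctsk, which went opposite ways, so it does not measure the content of macrophages. Of 9 T and NK cell markers 4 were at or above the floor, from -0.04 to 0.17. The upper end is Cd3d (53.1 and 59.7), which reached the floor only through its mutant value. The summed intensity of all 9 was 369 and 373. Single values ran from 14.2 to 92.3, near or below the floor, so the sum does not measure the content of these cells. B cell and mast cell markers, 3 and 4 genes, were all below the floor, and of 6 neutrophil markers Camp alone reached it, at 71.0 and 64.7. The Camp ratio was -0.13, and no immune marker at or above the floor had a lower ratio than Acp5, a phosphatase of osteoclasts, at -0.55, from 218 to 149.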

How the data were processed

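RNA was measured on 2 Affymetrix arrays, 1 per genotype, from 6 µg of total RNA each per the labels' protocols. The deposited file gives 1 linear intensity per array for each of 45037 probe sets. The submitters' processing notes name MAS5 with no version or settings. Scaling, background step and detection calls: not given in the sources used here. Whether the authors scaled both arrays together is therefore unknown, and a background step may have compressed differences at low signal. Of the probe sets 34945 were annotated to 1 gene symbol, 932 to several and 9160 were unnamed here. Symbols were updated by Entrez identifier against RefSeq GRCm38.p6, where 34741 were found and 0 changed.

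The log2 of each deposited intensity was used without further normalization. Each gene took its brightest probe set, and the floor was set at percentile 50 of all probe sets (log2 signal 5.77). No test was run, since there is 1 array per group. The members and the 22 gene lists were chosen with earlier results of these data known, and of 239 list entries 219 matched a gene value. All members were named, with their receptor and partner chains and, from each pathway list, the highest and lowest ratio at or above the floor. Alternatives were array median centring, quantile normalization, loess correction (span 0.3), an offset of 32, means over probe sets, leaving out probe sets named _s_at, _x_at or _a_at, a floor at percentile 40, at 60 or none, and thresholds of 1.5-fold and 3-fold. The scripts were tested on simulated data. The number of arrays limits the precision. Python 3.11.15, numpy 2.4.6, pandas 2.3.3, statsmodels 0.14.6 and matplotlib 3.10.9 were used.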

Additional observations from a re-analysis of the deposited data

How the results depend on the processing

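The number of member genes at least 2-fold lower, 3 as reported, was 1 with an offset of 32 added before log2, when Il23a and Tslp missed the threshold, 5 at a threshold of 1.5-fold and 0 at 3-fold. It was 3 or 2 under the other 9 alternatives, and 2 was the value with the floor at the 60th percentile, which removes Tslp. No member was 2-fold higher under any of the 12 alternatives. The median over the members kept its direction under all 10 alternatives that give one, from -0.64 with array median centring to -0.39 with probe sets averaged. The number at least 1.5-fold lower was 4 or 5 under 10 alternatives, a check chosen after the data were seen. Of 69 ratios of single members under the alternatives 0 changed sign, but for Osmr the mean over probe sets was -0.12 against -0.55. Many of the 69 could not move, since the choice of probe sets leaves genes with 1 probe set unchanged. The count is therefore no measure of certainty. Csf1 has no value when probe sets that may match several transcripts are left out, since all 4 of its probe sets are of that kind. No paired analysis was possible because each group holds 1 array. Signals below the floor limit Il15 on both arrays and Tslp on the mutant array, and disagreement between probe sets limits Osmr.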
